A study of Mus musculus with 6 samples.

Results

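Gene expression in an untreated cardiac allograft was set beside that in an untreated cardiac syngraft, both from mice. Of the 6 arrays of the series, 1 came from the untreated allograft and 1 from the untreated syngraft, and all probe sets other than controls entered the comparison. These were 22626 of the 22690 probe sets on the array, and 20380 of them that were assigned to a single gene gave 12393 genes. An allograft is a heart transplanted into a genetically different recipient, and a syngraft is one transplanted into a recipient of the same inbred background. Neither recipient had received a treatment, per the labels. The other 4 arrays held allografts from treated mice, and their range is quoted where it helps to place a value. ABH4 (4-amino tetrahydrobiopterin) and BH4 (tetrahydrobiopterin) had each been given at 50 mg/kg with 8 h between doses, NIL (N-imino ethyl-L-lysine) at 5 mg/kg with 8 h between doses, and CsA (cyclosporin A) at 15 mg/kg with 24 h between doses. Mouse strain, genotype, sex and age, the day of graft removal and whether RNA of several grafts was pooled are not given in the sources used here. With 1 array on each side, no variance could be estimated and no test was made. A difference between the groups cannot be told apart from a difference between single grafts, arrays or strains, and every value below is a description of these 2 arrays.

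A transplanted heart is a mixture of cardiomyocytes, fibroblasts, endothelial and mural cells, to which recipient leukocytes are added. Healthy cardiomyocytes draw most of their energy from fatty acids and take up glucose through an insulin-responsive transporter, whereas activated leukocytes depend strongly on glycolysis, on amino acid import and on nucleotide synthesis. The vessel wall and the interstitium are kept in shape by growth factor, TGF-beta, Notch and Wnt signals, each read out by its own transcription factors.

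Values are signal intensities, the brightness of a probe set, after scaling of both arrays to a common median. Signals under 34.8 were set to that floor, so a fold against an array at the floor is a lower bound, written "at least". Folds that rest on a signal just above the floor are likewise uncertain in size. Of the 12393 genes, 849 (6.85%) had a signal at least 2-fold higher in the allograft and 592 (4.78%) a signal at least 2-fold lower, and of the 22626 probe sets 1408 (6.22%) were higher and 962 (4.25%) lower. With the deposited values, which lack the common median, the same counts were 629 higher and 859 lower, so the balance between the directions depends on the scaling, which shifted the difference between the arrays by 0.19 on the log2 scale. At 3-fold, 339 genes (2.74%) were higher and 198 (1.6%) lower, and at 10-fold 41 (0.331%) were higher and 14 (0.113%) lower. Of the genes past 2-fold, 491 had another probe set above the floor on either or both arrays. Of these 491, 430 had all such probe sets on the same side. In 15 of them, such a probe set went at least 1.5-fold the other way. Pearson's r between the arrays was 0.916 over the genes, which are no independent replicates. Each gene was read from its brightest probe set. Where averaging a named gene over its probe sets moved its difference by over 1.5-fold, that fold is given as the probe set mean. It has the same direction, and probe sets at the floor on both arrays enter it as no difference, so it is no bound. Genes at the floor on both arrays numbered 2367, and no difference could be read for them.

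**Figure D1:**
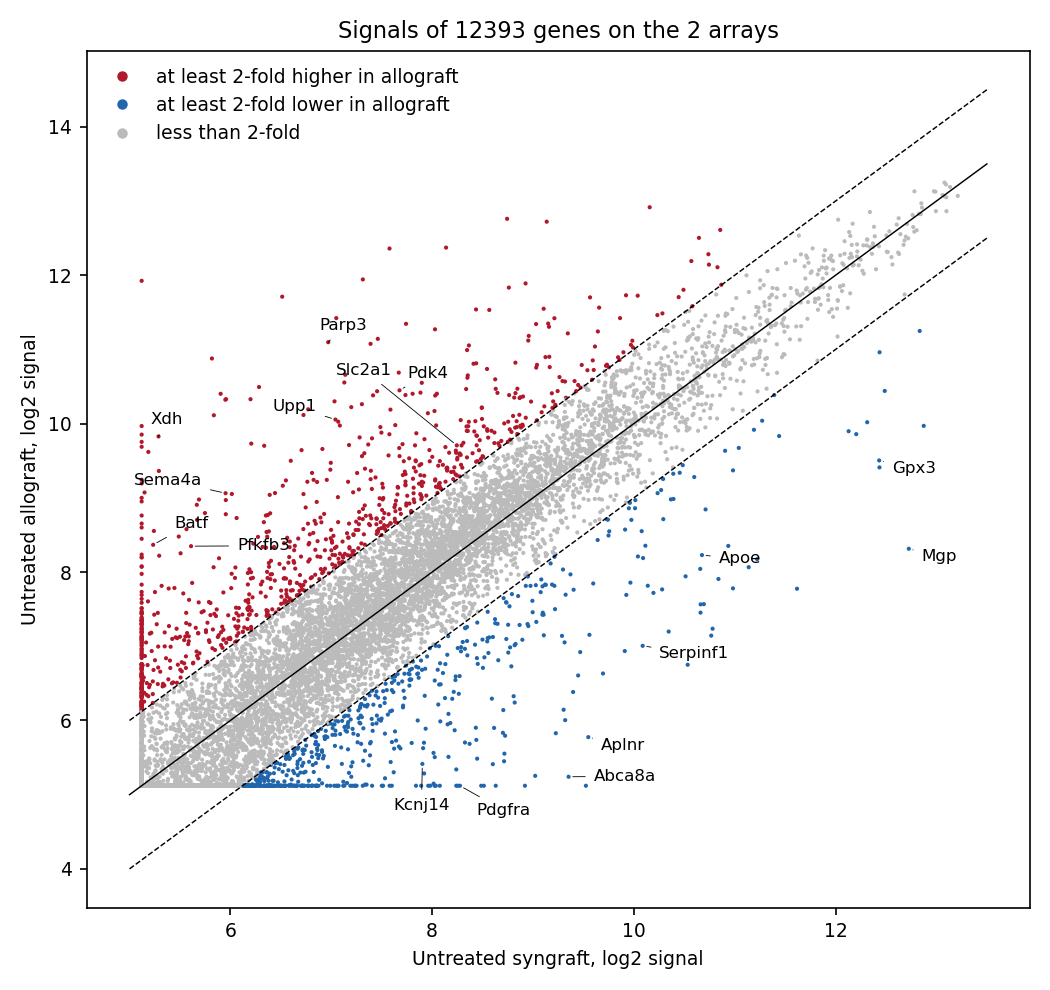
Log2 signal of each gene in the untreated allograft (vertical axis) against the untreated syngraft (horizontal axis), 1 point a gene and 1 array a side. Red points lie at least 2-fold higher in the allograft (849 genes), blue points at least 2-fold lower (592 genes), the solid line marks equal signals, the dashed lines mark 2-fold, and the straight edges of points at 5.12 are genes set to the floor.

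The tissue and the other cell types it could hold were read from marker genes. All 10 cardiomyocyte markers lay within 1.5-fold, with a summed signal of 53873 in the allograft against 57163 in the syngraft, and Myl7, an atrial myosin light chain, was at the floor on both arrays. All 9 fibroblast markers were at least 2-fold lower, with a summed signal of 3198 in the allograft against 24063 in the syngraft, and Pdgfra and Tcf21 were at the floor in the allograft. Of 8 endothelial markers 5 were at least 1.5-fold lower and none higher, with sums of 1335 in the allograft against 2291 in the syngraft. Of 10 smooth muscle and pericyte markers 5 were lower, with sums of 7739 in the allograft against 9540 in the syngraft. Of 7 T cell markers 6 were at least 2-fold higher, with sums of 1824 in the allograft against 257 in the syngraft. In the syngraft 6 of the 7 were at the floor, so the syngraft sum consists mostly of floor values and 5 of the differences are lower bounds. Cd4, the helper T cell coreceptor, was at the floor on both. The 6 measured cytotoxic cell markers were all higher, with sums of 6801 in the allograft against 298 in the syngraft, where 2 of them were at the floor. Macrophage markers were mixed, 4 of 9 higher and 1 lower, with sums of 10629 in the allograft against 7239 in the syngraft. In bulk tissue, fewer cells of a type and less RNA per cell cannot be told apart. These markers moved with many of the gene groups below, and their part in those differences was not tested.

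**Figure D2:**
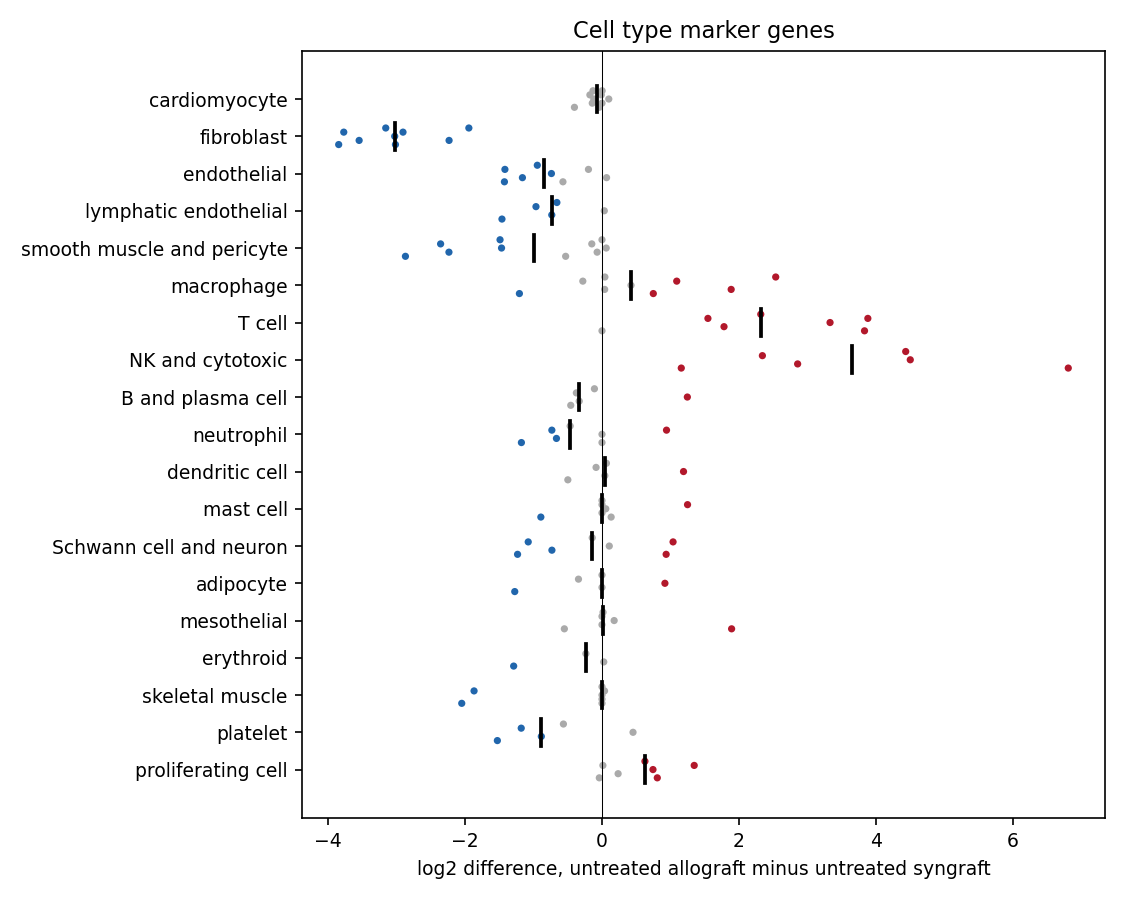
Log2 difference (untreated allograft minus untreated syngraft) of each marker gene, 1 point a gene, for each cell type, with the median as a bar and colours for members past 1.5-fold (red higher, blue lower). Cardiomyocyte markers cluster near 0, all 9 fibroblast markers lie below -1.9, and 6 T cell and 6 cytotoxic cell markers lie above 1.

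To describe the graft beyond its immune and matrix genes, 35 lists of transporters, metabolic enzymes, signalling molecules and transcription factors were read, with 992 measured entries for 967 different genes. A member counts as higher or lower at 1.5-fold, a threshold that 1907 of the 12393 genes (15.4%) passed upward and 1471 (11.9%) downward. Of the lists, 25 held at least 5 members past 1.5-fold on one side and at least 2 times as many there as on the other, and each of these still had more members on that side with the deposited values and with quantile normalization. Haematopoietic signalling adaptors and cytoskeleton had the highest median log2 difference (log2 of allograft over syngraft signal), 1.07, followed by the unfolded protein and ATF4 response at 0.65, NAD and ADP-ribosylation enzymes at 0.62, Toll-like receptor and NF-kappaB genes at 0.54, cell death regulators at 0.53 and nucleotide enzymes at 0.53. Mesenchymal transcription factors had the lowest, -0.45, followed by the TGF-beta and BMP pathway at -0.39, and by hyaluronan and proteoglycan enzymes and endothelial transcription factors, both at -0.35. With the floor set at the 50th percentile, the medians of these lower lists lay between -0.10 and 0.00.

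**Figure D3:**
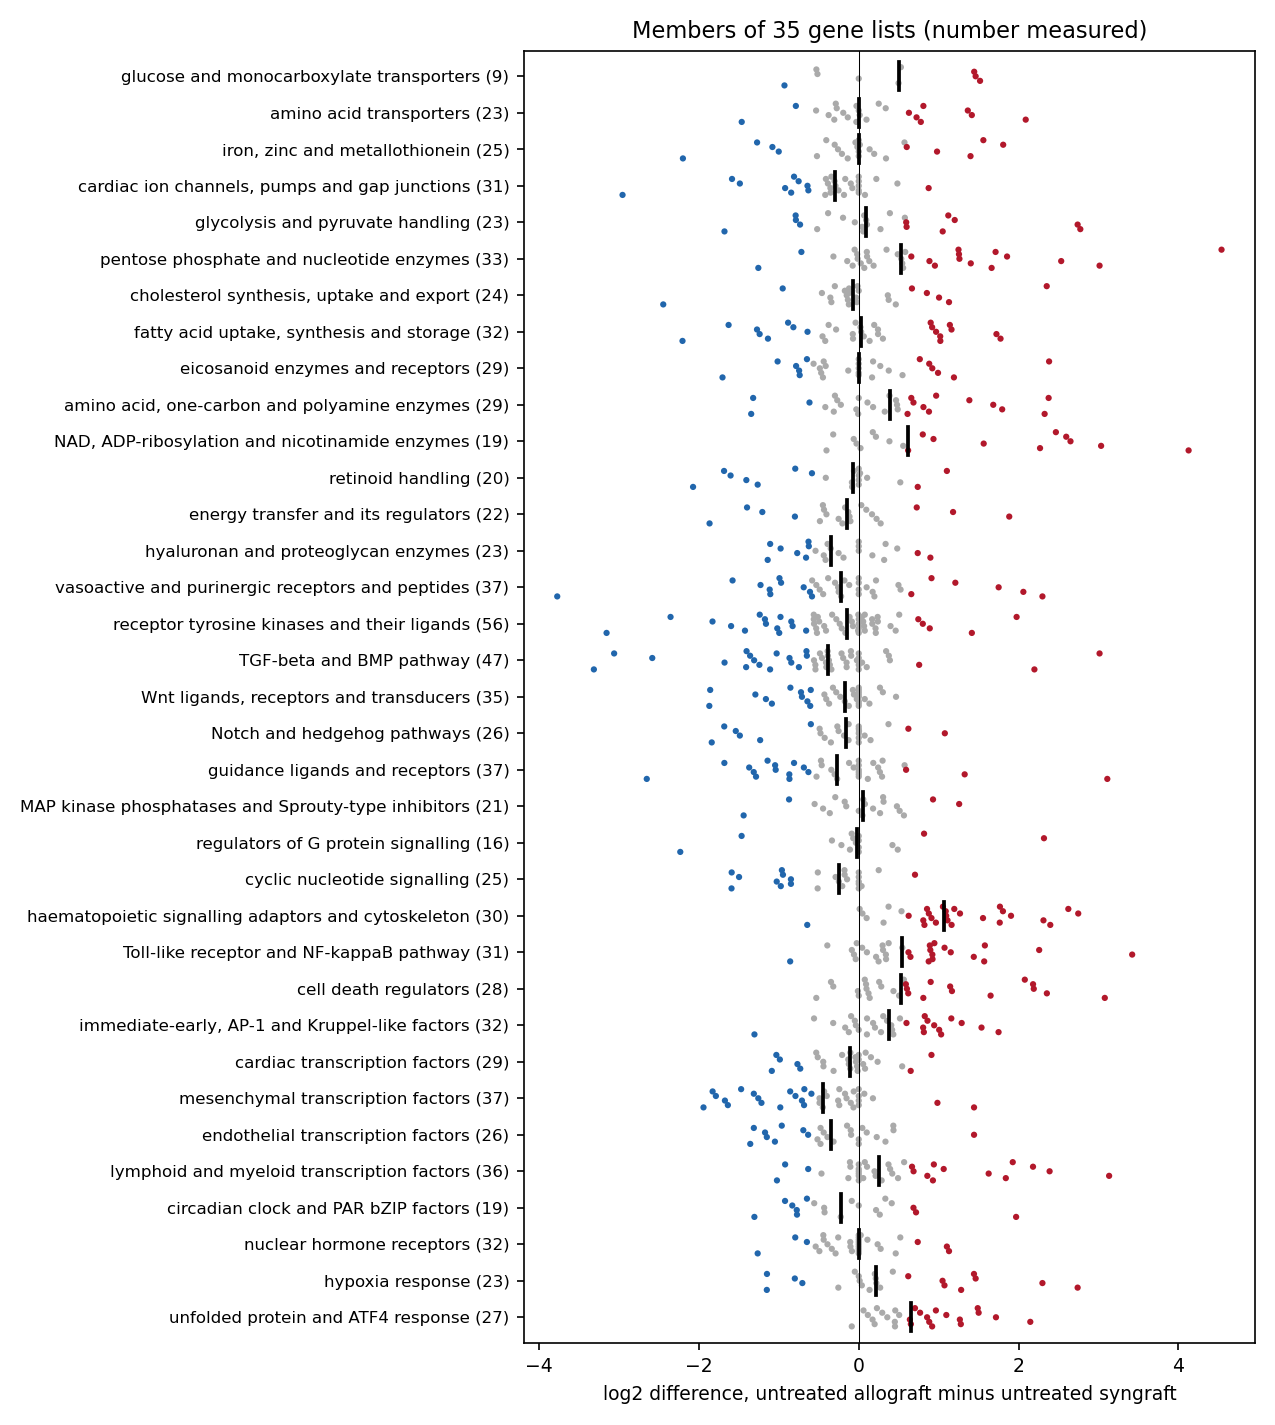
Members of the 35 lists as points of log2 difference (untreated allograft minus untreated syngraft), with the list median as a bar, red points past 1.5-fold upward and blue ones past 1.5-fold downward. The haematopoietic adaptor list has the highest median, 1.07, and the mesenchymal transcription factor list the lowest, -0.45.

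Among glucose and monocarboxylate transporters, 3 of 9 were at least 2-fold higher and none was 2-fold lower. Slc2a1, which encodes the basal glucose transporter GLUT1, had a signal intensity of 836 in the allograft against 303 in the syngraft (2.76-fold higher). Slc2a3, the high-affinity glucose transporter of neurons and leukocytes, had 236 in the allograft against 86.9 in the syngraft. Slc16a3, the lactate exporter of glycolytic cells, had 655 in the allograft against 229 in the syngraft (2.86-fold higher). The insulin-responsive transporter of heart and muscle, Slc2a4 (GLUT4), went the other way, with 412 in the allograft against 785 in the syngraft (1.9-fold lower). The treated allografts lay between 300.4 and 474 for Slc2a4 and thus all below the syngraft. For Slc2a3 the probe set mean gave 1.78-fold.

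The hypoxia-inducible factors bind a short core on DNA, and genes of glucose uptake and glycolysis are among their known targets. The letters ACGTGC, searched on both strands, occur in 1943 of 32851 mouse promoter windows (5.91%), each reaching from 250 bases before to 50 after a gene's start. They partly overlap CACGTG, another of the 7 motifs searched, which occurs in 7.15% of the windows. Of the 13 members of the hypoxia, glycolysis and glucose transporter lists that exceeded 2-fold upward, 11 had a window and 7 of these held ACGTGC. Of the other members of these lists, 34 had a window and 10 held it. A gene was counted if any of its windows held the letters, whereas the 5.91% is a share of windows. The gene counts and that share are therefore not in like units. The windows of 3 higher members are shown here because they carry the motif close to the start. They are the 150 bases before the start, from RefSeq on GRCm38.p6, in the direction of the gene, with the match in capitals, and the motif and genes were picked after the matches had been seen. They lie at chr4:119108595-119108744 (plus strand, Slc2a1), chr11:120948917-120949066 (plus strand, Slc16a3) and chr2:11553930-11554079 (minus strand, Pfkfb3).
Slc2a1: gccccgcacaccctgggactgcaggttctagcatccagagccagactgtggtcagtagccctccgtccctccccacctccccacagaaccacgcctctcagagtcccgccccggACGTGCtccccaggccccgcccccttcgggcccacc
Slc16a3: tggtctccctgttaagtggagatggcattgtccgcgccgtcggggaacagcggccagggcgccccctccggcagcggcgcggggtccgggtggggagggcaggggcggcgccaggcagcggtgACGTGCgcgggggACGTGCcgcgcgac
Pfkfb3: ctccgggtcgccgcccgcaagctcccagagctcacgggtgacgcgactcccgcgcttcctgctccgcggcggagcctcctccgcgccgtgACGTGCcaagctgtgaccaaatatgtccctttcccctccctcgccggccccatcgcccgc
The match in Slc2a1 begins 36 bases before the start and that in Pfkfb3 60 bases before it, and Slc16a3 holds 2 matches. A match is a description of these letters and no evidence that a factor was bound.

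Pfkfb3, whose kinase makes the strongest activator of phosphofructokinase, had a signal intensity of 326 in the allograft against 48.8 in the syngraft (6.68-fold higher). Pdk4, a pyruvate dehydrogenase kinase, had 1398 in the allograft against 205 in the syngraft (6.83-fold higher). Its relative Pdk3 had 117 in the allograft against 50.9 in the syngraft. Of the chain of glycolysis itself, Pgam1, a phosphoglycerate mutase, had 1203 in the allograft against 553 in the syngraft. Pfkp, the platelet-type phosphofructokinase, had 1903 in the allograft against 919 in the syngraft. Eno2, the neuronal enolase, was lower, with 36.8 in the allograft against 118 in the syngraft, and the treated allografts lay between the floor and 38.8 for it. Most of the other enzymes differed little: of 23 measured members 7 passed 1.5-fold upward and 4 downward, and the list median of 0.09 turned to -0.10 with the deposited values, where 5 members were higher and 5 lower. For Pfkfb3 the probe set mean gave 3.47-fold.

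The hypoxia list had 8 of 23 members higher and 4 lower at 1.5-fold, with a median of 0.21 that turned to -0.03 after quantile normalization. Hif1a, the oxygen-regulated subunit itself, had 1469 in the allograft against 698 in the syngraft. Egln3, a prolyl hydroxylase that marks that subunit for destruction, had 1524 in the allograft against 627 in the syngraft. Ero1a, which oxidises new disulphide bonds in the endoplasmic reticulum, had 579 in the allograft against 213 in the syngraft. These 3 genes were all more than 2-fold higher in the allograft. The endothelial paralogue Epas1 was lower, with 74.1 in the allograft against 164 in the syngraft, as was the collagen prolyl hydroxylase P4ha2, with 192 in the allograft against 427 in the syngraft. Ndrg1, a stress-responsive gene of unsettled function, had 752 in the allograft against 363 in the syngraft. Adm, the vasodilator peptide adrenomedullin, had 291 in the allograft against 59.2 in the syngraft (4.92-fold higher).

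Amino acid transporters had 7 of 23 members at least 1.5-fold higher and 2 lower, with a median of 0.00 (-0.18 with the deposited values). Slc7a5 and Slc3a2 encode the light and heavy chains of one heterodimer that imports large neutral amino acids. Slc7a5 had a signal intensity of 343 in the allograft against 129 in the syngraft (2.67-fold higher), and Slc3a2 had 1582 in the allograft against 614 in the syngraft (2.58-fold higher), so that both chains were higher by a similar factor. Slc15a3, a peptide and histidine carrier of endolysosomes, had 493 in the allograft against 116 in the syngraft (4.26-fold higher). Slc38a4, an importer of small neutral amino acids, was lower, with 35.2 in the allograft against 97.0 in the syngraft. For Slc38a4 the probe set mean gave 1.66-fold.

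Genes of metal handling were split, with 5 of 25 at least 1.5-fold higher and 4 lower, or 4 higher and 6 lower with the deposited values. Mt1 and Mt2 encode metallothioneins, small proteins that bind zinc and copper. Mt1 had 4523 in the allograft against 1715 in the syngraft and Mt2 had 3396 in the allograft against 970.3 in the syngraft (3.5-fold higher). Slc11a1 pumps iron and manganese out of the macrophage phagosome and had 957 in the allograft against 325 in the syngraft (2.95-fold higher). Slc40a1, the only known cellular iron exporter, was 2.0-fold lower, with 107 in the allograft against 214 in the syngraft. The metalloreductases Steap3 and Steap4 were lower as well, Steap3 with 63.4 in the allograft against 134 in the syngraft and Steap4 with 35.2 in the allograft against 162 in the syngraft (4.6-fold lower). Steap4 was close to the floor in the allograft. Hp, the haemoglobin-binding protein haptoglobin, had 417 in the allograft against 1007 in the syngraft. For Mt1 the probe set mean gave 1.62-fold.

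Over the whole solute carrier superfamily, 9 of 238 Slc genes (3.78%) passed 2-fold upward and 8 (3.36%) downward, both below the shares over all genes. Among the lower ones were Slc44a1, a choline transporter, with 93.3 in the allograft against 300.4 in the syngraft, and Slc5a2, a sodium-coupled glucose transporter known from kidney, with 61.8 in the allograft against 169.9 in the syngraft. Of 36 ABC transporters none was 2-fold higher and 2 (5.56%) were lower, against 6.85% and 4.78% of all genes. Abca8a, a lipid-related transporter of the ABCA class, had 37.8 in the allograft against 654 in the syngraft and was thus 17.3-fold lower, next to the floor in the allograft. The treated allografts lay between 62.4 and 387 for Abca8a. For Slc5a2 the probe set mean gave 1.71-fold.

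Ion channels, pumps and gap junction genes of the heart had 1 of 31 members at least 1.5-fold higher and 9 lower, with a median of -0.30. Kcnj8 and Abcc9 encode the pore and the sulphonylurea receptor of the ATP-sensitive potassium channel of vascular smooth muscle and pericytes. Kcnj8 had 62.3 in the allograft against 175 in the syngraft, and Abcc9 had 89.5 in the allograft against 269 in the syngraft (3.0-fold lower), so that both subunits were lower together. Fxyd6, a regulator of the sodium pump, had a value at the floor in the allograft against 269.9 in the syngraft (at least 7.76-fold lower). The sodium-calcium exchanger Slc8a1 was lower by less than 2-fold, with 208 in the allograft against 374 in the syngraft. The list shares Kcnj8 with the mural cell markers, of which 5 of 10 were lower, and the part of those cells in the difference was not tested.

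Of 61 potassium channel genes, 2 (3.28%) passed 2-fold upward and 6 (9.84%) downward, against 6.85% and 4.78% of all genes. At the floor on both arrays were 19 of the 61, for which no difference could be read. Kcnn4 encodes the calcium-activated channel of lymphocytes and red cells and had 197 in the allograft against 48.2 in the syngraft (4.1-fold higher). Kcnab2, an auxiliary beta subunit, had 170.4 in the allograft against 67.7 in the syngraft. Kcnj14, an inward rectifier, had 42.7 in the allograft against 239 in the syngraft (5.61-fold lower). The 4 treated allografts lay between the floor and 35.2 for Kcnj14. Kcnk2, a stretch-sensitive background channel, and Kcne4, an accessory subunit, were at the floor in the allograft, with syngraft signals of 101 for Kcnk2 and 109.9 for Kcne4. For Kcnab2 the probe set mean gave 1.65-fold.

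Nucleotide metabolism was one of the groups that leaned upward, with 13 of 33 members at least 1.5-fold higher and 2 lower, and 10 against 1 at 2-fold. Xdh, the xanthine dehydrogenase that makes uric acid at the end of purine breakdown, had a signal intensity of 908 in the allograft against 39.0 in the syngraft (23.3-fold higher), with the syngraft close to the floor. Upp1, a phosphorylase that splits uridine, had 1064 in the allograft against 132 in the syngraft (8.07-fold higher). Pnp, its purine counterpart, had 1849 in the allograft against 772 in the syngraft, and Nt5e, the ectoenzyme CD73 that releases adenosine, had 397 in the allograft against 167 in the syngraft. Enzymes of both breakdown and salvage were therefore among the higher members. Dck, the deoxycytidine kinase of lymphoid salvage, had 139 in the allograft against 43.9 in the syngraft. Rrm2, the cell cycle-regulated subunit of ribonucleotide reductase, had 383 in the allograft against 106 in the syngraft (3.62-fold higher).

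Rrm2 stood beside proliferation markers of which 4 of 7 were at least 1.5-fold higher, with sums of 1264 in the allograft against 835 in the syngraft. Samhd1, which destroys deoxynucleotides, had 1368 in the allograft against 236 in the syngraft, but another of its probe sets went at least 1.5-fold the other way. Cmpk2, a mitochondrial nucleotide kinase, had 128 in the allograft against 39.0 in the syngraft. Ampd3, the AMP deaminase isoform of red cells and leukocytes, had 796 in the allograft against 301 in the syngraft. Taldo1, a transaldolase of the pentose phosphate route, had 1112 in the allograft against 466 in the syngraft. Adssl1, the muscle adenylosuccinate synthase of the purine nucleotide cycle, was the one member 2-fold lower, with 360.1 in the allograft against 860.4 in the syngraft (2.39-fold lower). For Samhd1 the probe set mean gave 2.26-fold.

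Enzymes that use NAD showed the same lean, with 10 of 19 at least 1.5-fold higher and none lower. Nampt, the rate-limiting enzyme of NAD salvage, had 1572 in the allograft against 326 in the syngraft (4.82-fold higher). Parp3, which attaches single ADP-ribose units near DNA breaks, had 2191 in the allograft against 125 in the syngraft (17.5-fold higher). The treated allografts lay between 1435 and 2079.9 for Parp3, all far above the syngraft. Parp9, Parp12 and Parp14 belong to the interferon-responsive members of that family. Parp9 had 1337 in the allograft against 213 in the syngraft, Parp12 had 991 in the allograft against 179 in the syngraft and Parp14 had 1354 in the allograft against 224 in the syngraft. Bst1 (CD157), an ectoenzyme that turns NAD into cyclic ADP-ribose, had 417 in the allograft against 50.9 in the syngraft (8.18-fold higher). Art3, a member of the ADP-ribosyltransferase family expressed in muscle, had 702 in the allograft against 237 in the syngraft. For Parp3 the probe set mean gave 6.93-fold and for Bst1 4.73-fold.

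Amino acid and one-carbon enzymes had 11 of 29 members at least 1.5-fold higher and 3 lower. Asns, the asparagine synthetase, had 584 in the allograft against 182 in the syngraft (3.21-fold higher), and Psat1, the aminotransferase of serine synthesis, had 530.3 in the allograft against 106 in the syngraft (5.01-fold higher). Aldh18a1, the first enzyme of proline synthesis from glutamate, had 241 in the allograft against 92.3 in the syngraft. These 3 enzymes of amino acid synthesis are known targets of the stress-responsive factor ATF4. Wars and Ido1 both act on tryptophan and are inducible by interferon-gamma. Wars, the tryptophanyl-tRNA synthetase, had 1799 in the allograft against 347 in the syngraft (5.19-fold higher), and Ido1, which breaks tryptophan down to kynurenine, had 212 in the allograft against 61.0 in the syngraft (3.47-fold higher). Bcat2, the mitochondrial enzyme that opens branched-chain amino acid breakdown, was lower, with 158 in the allograft against 401 in the syngraft, and so was Il4i1, a phenylalanine oxidase, with 41.9 in the allograft against 105 in the syngraft.

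The unfolded protein and ATF4 response had 15 of 27 members at least 1.5-fold higher and none lower, with 7 past 2-fold. Ern1, the stress sensor IRE1 of the endoplasmic reticulum, was at the floor in the syngraft and had 98.4 in the allograft (at least 2.83-fold higher). Ddit3 (CHOP), a transcription factor downstream of ATF4, had 567 in the allograft against 202 in the syngraft, and Trib3, its pseudokinase target, had 133 in the allograft against 55.4 in the syngraft. Sesn2, an inhibitor of the nutrient sensor complex mTORC1, was at the floor in the syngraft and had 154 in the allograft (at least 4.43-fold higher). Edem1 and Sdf2l1 act in protein quality control within the reticulum. Edem1 had 556 in the allograft against 169 in the syngraft (3.29-fold higher), and Sdf2l1 had 362 in the allograft against 149 in the syngraft. The main chaperone Hspa5 (BiP) was already bright in the syngraft and differed less, with 4091 in the allograft against 2219.8 in the syngraft (1.84-fold higher). Hyou1, another chaperone, had 386 in the allograft against 181 in the syngraft, though another of its probe sets went the other way. For Ern1 the probe set mean gave 1.32-fold and for Hyou1 1.05-fold.

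ATF4 acts through a composite element whose core is written here as TGATGNAA. On either strand it occurs in 3.97% of the promoter windows, a share of windows, whereas list members were again counted by gene. Of the members of the unfolded protein, amino acid enzyme and amino acid transporter lists that were at least 2-fold higher, 10 had a window and 2 held it, Asns and Trib3, against 7 of 52 other members. The 150 bases before the start of Asns, at chr6:7693210-7693359 (minus strand), and of Atf3, at chr1:191183334-191183483 (minus strand), are shown because both genes were over 2-fold higher and carry it. The source, build and orientation are as above, and Atf3, a stress-induced factor of the same family as ATF4, was added after its match had been seen.
Asns: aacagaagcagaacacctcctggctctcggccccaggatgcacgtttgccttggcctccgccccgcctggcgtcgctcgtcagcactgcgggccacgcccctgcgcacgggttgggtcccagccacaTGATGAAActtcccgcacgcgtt
Atf3: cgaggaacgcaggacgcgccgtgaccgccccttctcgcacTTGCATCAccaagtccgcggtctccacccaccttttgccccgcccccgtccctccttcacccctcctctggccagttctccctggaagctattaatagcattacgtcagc
The capitals mark the element, which in Atf3 lies on the opposite strand. It begins 23 bases before the start of Asns.

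**Figure D4:**
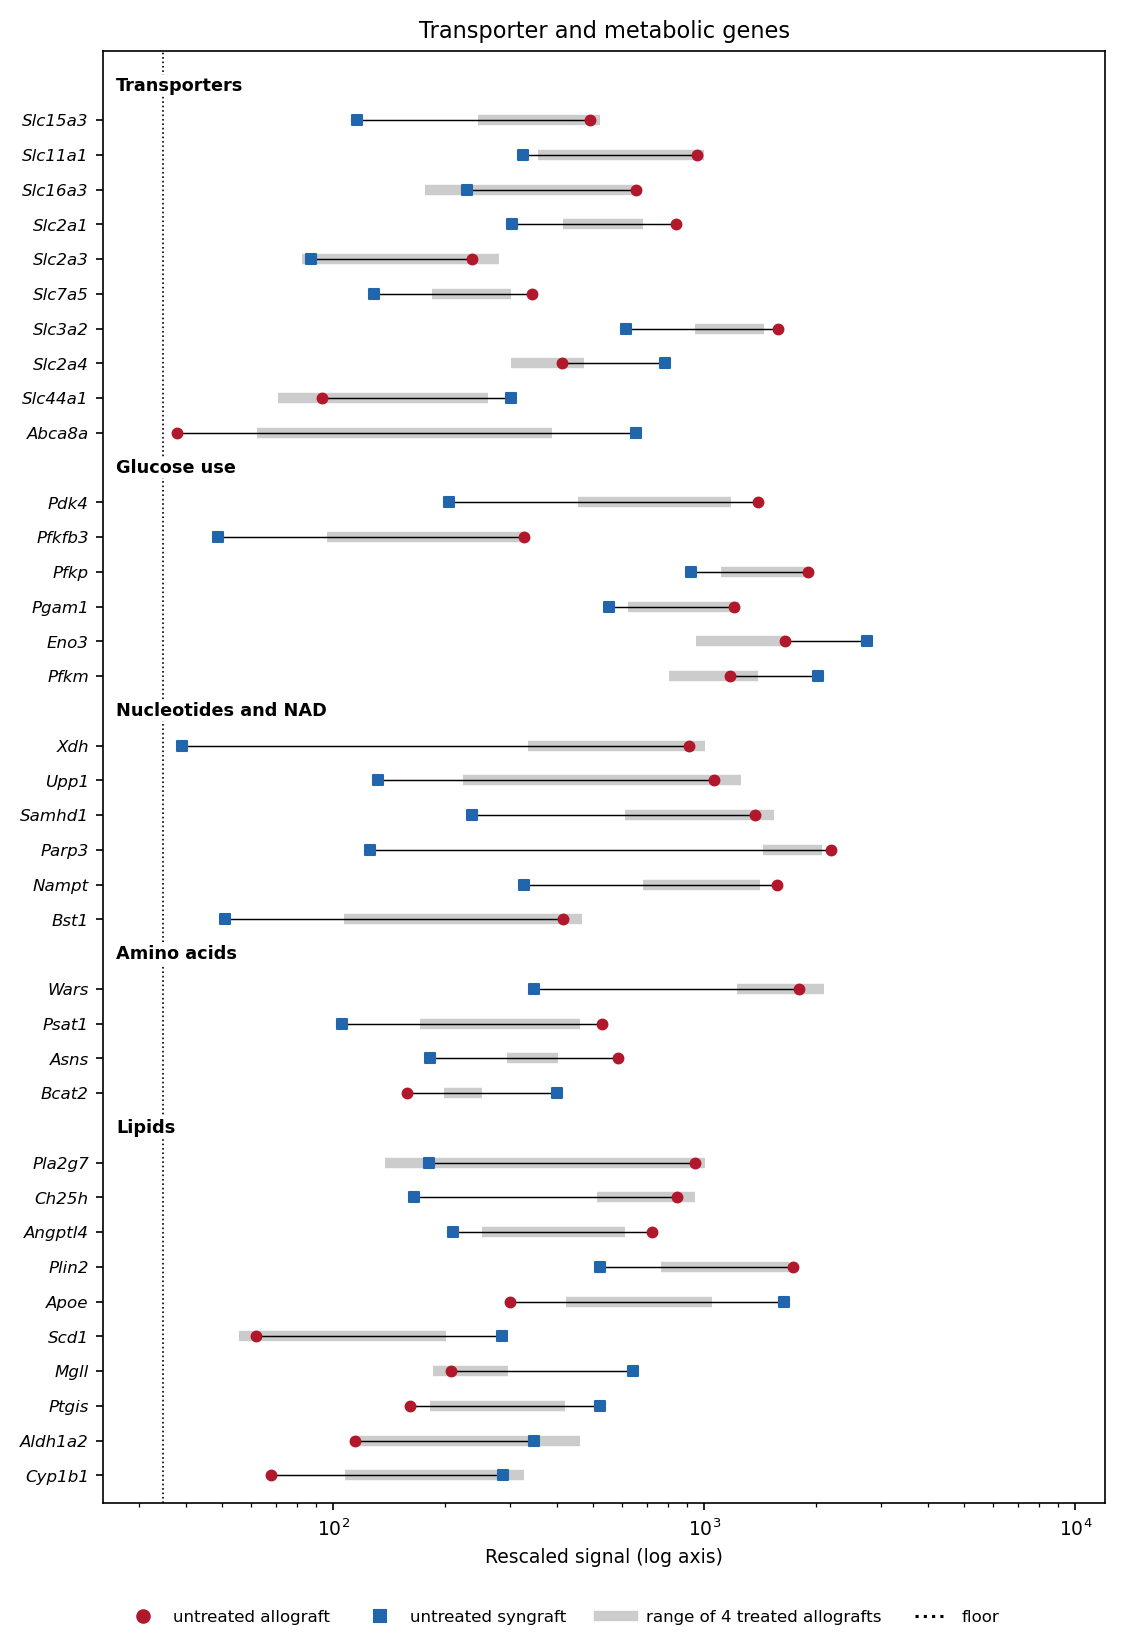
Signals (log scale) of named transporter and metabolism genes in the untreated allograft and in the untreated syngraft, joined by a line for each gene, with the range of the 4 treated allografts in grey and the floor of 34.8 dotted. Xdh, Parp3 and Upp1 are over 8-fold higher in the allograft, and Apoe and Scd1 are over 4-fold lower.

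In cholesterol handling, 5 of 24 members were at least 1.5-fold higher and 2 lower, with a median of -0.08. With the deposited values 4 were higher and 3 lower, and at 2-fold 1 was higher and 2 were lower. Apoe, the apolipoprotein that carries lipid out of macrophages and other cells, had 300.0 in the allograft against 1635 in the syngraft (5.45-fold lower), and the treated allografts lay between 423 and 1047. Ch25h makes an oxysterol that holds back cholesterol synthesis and had 843 in the allograft against 165 in the syngraft (5.11-fold higher). Nr1h3, the oxysterol receptor LXR-alpha, of which Apoe is a known target, had 179 in the allograft against 82.0 in the syngraft. Npc2, a cholesterol carrier of the lysosome, had 3747 in the allograft against 1867 in the syngraft. The receptor was thus higher while this target was lower, and other targets of the receptor were not read as a group.

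Fatty acid genes differed in both directions, with 9 of 32 at least 1.5-fold higher and 8 lower and a median of 0.03 that turned to -0.16 with the deposited values, where 9 were higher and 10 lower. Plin2, a coat protein of lipid droplets, had 1728 in the allograft against 523 in the syngraft (3.3-fold higher). Dgat2, which makes triglyceride, had 652 in the allograft against 292 in the syngraft, and Pnpla2, the lipase that opens its breakdown, had 1186 in the allograft against 585 in the syngraft. G0s2, an inhibitor of that lipase, had 181 in the allograft against 89.2 in the syngraft. Angptl4, a secreted inhibitor of lipoprotein lipase, had 721 in the allograft against 211 in the syngraft (3.42-fold higher), and Acsl5, which activates long-chain fatty acids, had 653 in the allograft against 296 in the syngraft. For Pnpla2 the probe set mean gave 1.29-fold and for Angptl4 1.85-fold.

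The fatty acid desaturases were lower. Scd1 had 61.7 in the allograft against 285 in the syngraft (4.61-fold lower), Scd2 had 93.9 in the allograft against 222 in the syngraft, and Fads2 had 48.6 in the allograft against 107 in the syngraft. Mgll, which releases glycerol from monoglycerides, had 207 in the allograft against 641 in the syngraft (3.09-fold lower). Fabp4, the fatty acid-binding protein of adipocytes, capillary endothelium and macrophages, had 967 in the allograft against 2337 in the syngraft. Of the 5 measured adipocyte markers, Fabp4 among them, 1 was lower and 1 higher, with sums of 1331 in the allograft against 2638 in the syngraft, and their part was not tested.

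Eicosanoid genes had 6 of 29 members higher and 6 lower at 1.5-fold, or 5 and 10 with the deposited values. Pla2g7, the enzyme that degrades platelet-activating factor, had 942 in the allograft against 181 in the syngraft (5.21-fold higher). Ptgis, the prostacyclin synthase of vessels, had 161 in the allograft against 524 in the syngraft (3.26-fold lower), and Tbxa2r, the thromboxane receptor, had 111 in the allograft against 224 in the syngraft. Ptgs2, the inducible cyclooxygenase, differed by less than 2-fold, with 197 in the allograft against 104 in the syngraft. Retinoid genes had 2 of 20 members higher and 7 lower. Aldh1a2, which makes retinoic acid in the epicardium and its derivatives, had 115 in the allograft against 348 in the syngraft, and Aldh1a1 was at the floor in the allograft against 112 in the syngraft. The retinoic acid receptor Rarg had 118 in the allograft against 284 in the syngraft, while its partner Rxrg had 124 in the allograft against 57.6 in the syngraft. Cyp1b1, a retinoid- and steroid-oxidising cytochrome, had 68.1 in the allograft against 286 in the syngraft (4.21-fold lower). Rbp4, the plasma retinol carrier, had 38.4 in the allograft against 102 in the syngraft. For Cyp1b1 the probe set mean gave 2.18-fold.

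Genes of energy transfer differed in single members, with 3 of 22 higher and 4 lower. Ckm, the creatine kinase of muscle, had 459.6 in the allograft against 1676 in the syngraft (3.65-fold lower), and Ckb, the brain form, had 225 in the allograft against 593 in the syngraft. Gatm, the first enzyme of creatine synthesis, was higher, with 402 in the allograft against 109 in the syngraft (3.69-fold higher). Slc25a20, the mitochondrial carnitine carrier, had 486 in the allograft against 214 in the syngraft. Bdh1, which oxidises the ketone hydroxybutyrate, had 375 in the allograft against 865 in the syngraft. Ckm is also a skeletal muscle marker, and of those 7 markers 2 were lower, with sums of 2024 in the allograft against 7592 in the syngraft and with 4 at the floor in the allograft and 5 in the syngraft, 4 of them on both arrays. Their part in the Ckm difference was not tested.

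Receptors and peptides that act on vessels had 6 of 37 members at least 1.5-fold higher and 10 lower. Aplnr, the apelin receptor of endothelium, had a signal intensity of 54.8 in the allograft against 749 in the syngraft (13.7-fold lower), and the treated allografts spanned the floor to 469.8 for it. F2r, the main thrombin receptor, had 419.6 in the allograft against 1254 in the syngraft (2.99-fold lower). Ramp2, the partner that turns the calcitonin-like receptor into an adrenomedullin receptor, had 225 in the allograft against 487 in the syngraft, opposite in direction to its ligand Adm above. Lpar1, a receptor for lysophosphatidic acid, had 186 in the allograft against 436 in the syngraft. On the higher side stood receptors found on leukocytes. P2ry14, which senses UDP-glucose, was at the floor in the syngraft and had 145 in the allograft (at least 4.17-fold higher), P2ry6, a UDP receptor, had 423 in the allograft against 183 in the syngraft, and S1pr4, a sphingosine phosphate receptor of lymphocytes, had 159 in the allograft against 47.2 in the syngraft. For Aplnr the probe set mean gave 9.1-fold.

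Receptor tyrosine kinases and their ligands had 5 of 56 members higher and 14 lower. The PDGF receptors, which drive fibroblasts and mural cells, were among the lowest. Pdgfra was at the floor in the allograft against 310.0 in the syngraft (at least 8.91-fold lower), and Pdgfrb had 58.4 in the allograft against 299 in the syngraft (5.12-fold lower). Fgfr1, a fibroblast growth factor receptor, had 89.7 in the allograft against 271 in the syngraft and Gas6, the ligand of the TAM receptors, had 296 in the allograft against 1053 in the syngraft (3.56-fold lower). Mertk, one of those receptors, was 1.85-fold higher, with 244 in the allograft against 132 in the syngraft. In the angiopoietin system, the ligand Angpt2 was at the floor in the syngraft and had 137 in the allograft (at least 3.93-fold higher), while its receptor Tek had 59.5 in the allograft against 159.6 in the syngraft. Kdr, the main VEGF receptor of endothelium, had 225 in the allograft against 503 in the syngraft. Kitl, the stem cell factor, had 433 in the allograft against 162 in the syngraft (2.67-fold higher). Tek and Kdr are also endothelial markers, and Pdgfra and Pdgfrb are markers of fibroblasts and mural cells. For Pdgfra the probe set mean gave 5.51-fold and for Kitl 1.67-fold.

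The TGF-beta and BMP pathway had 3 of 47 members at least 1.5-fold higher and 16 lower, with 11 past 2-fold downward. The latent TGF-beta-binding proteins, which store the ligand in the matrix, were lower: Ltbp2 had 64.2 in the allograft against 639 in the syngraft (9.95-fold lower), Ltbp4 had 99.2 in the allograft against 828 in the syngraft (8.35-fold lower) and Ltbp3 had 172 in the allograft against 551 in the syngraft. Fstl1, a secreted glycoprotein that binds BMPs, had 327 in the allograft against 1959 in the syngraft (6.0-fold lower). The ligand Tgfb3 had 125 in the allograft against 321 in the syngraft and the signalling receptor Tgfbr2 had 489 in the allograft against 996 in the syngraft. Bambi, a decoy receptor, had 136 in the allograft against 362 in the syngraft. Thus ligand, store, receptor and decoy all held lower members.

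The Id proteins, which block basic helix-loop-helix factors and are induced by BMPs, did not go one way. Id2 had 382 in the allograft against 47.3 in the syngraft (8.07-fold higher), whereas Id3 had 129.9 in the allograft against 344 in the syngraft and Id1 had 238 in the allograft against 428 in the syngraft. Id2 is also known as a factor of cytotoxic and innate lymphocytes. Tgfbi, a secreted adhesion protein induced by TGF-beta and made by macrophages too, had 2608 in the allograft against 568 in the syngraft (4.59-fold higher). The fibroblast markers, all 9 lower, moved with this pathway, and their part was not tested. For Id2 the probe set mean gave 4.47-fold and for Tgfbi 2.87-fold.

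Enzymes of hyaluronan and proteoglycans had 2 of 23 members higher and 7 lower. Ext1, which builds the heparan sulphate chains that hold growth factors, had 193 in the allograft against 426 in the syngraft (2.2-fold lower). Cd44, the hyaluronan receptor of leukocytes and other cells, was on the higher side, with 918 in the allograft against 493 in the syngraft.

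Of 35 Wnt genes none was at least 1.5-fold higher and 11 were lower, and 8 were at the floor on both arrays. The receptors Fzd2 and Fzd4 were lower, Fzd2 with 75.3 in the allograft against 185 in the syngraft and Fzd4 with 92.9 in the allograft against 197 in the syngraft. The inhibitors Dact1 and Nkd2 were lower too: Dact1 had 43.9 in the allograft against 159 in the syngraft, and Nkd2 was at the floor in the allograft against 127 in the syngraft. In the Notch and hedgehog list 2 of 26 were higher and 6 lower. Notch3, the receptor of mural cells, had 121 in the allograft against 432 in the syngraft (3.58-fold lower), and its target Heyl had 92.9 in the allograft against 261 in the syngraft. Nrarp, a feedback inhibitor of Notch, had 83.4 in the allograft against 196 in the syngraft, whereas Lfng, a glycosyltransferase that tunes Notch receptors, was higher, with 293 in the allograft against 139 in the syngraft. The hedgehog transducer Smo had 52.3 in the allograft against 168 in the syngraft. For Notch3 the probe set mean gave 2.37-fold.

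Guidance molecules had 3 of 37 members higher and 13 lower. Unc5b, a netrin receptor of endothelial tip cells, had 45.5 in the allograft against 286 in the syngraft (6.29-fold lower), and its ligand Ntn1 had 155 in the allograft against 496 in the syngraft (3.21-fold lower). Sema4a, a semaphorin of antigen-presenting and T cells, had 535 in the allograft against 61.9 in the syngraft (8.64-fold higher). Sema4d, another immune semaphorin, had 775 in the allograft against 309 in the syngraft, with another of its probe sets at least 1.5-fold the other way. Receptor, ligand and the vascular ephrin pair were lower: Ephb4 had 85.0 in the allograft against 187 in the syngraft, and Efnb2 was at the floor in the allograft against 86.5 in the syngraft. For Sema4a the probe set mean gave 4.87-fold.

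Genes of cyclic nucleotide signalling had 1 of 25 members higher and 9 lower. Pde2a and Pde3a, phosphodiesterases regulated by cyclic GMP, were close to the floor in the allograft. Pde2a had 41.5 in the allograft against 125 in the syngraft and Pde3a had 36.4 in the allograft against 109.7 in the syngraft. The soluble guanylate cyclase that responds to nitric oxide consists of an alpha and a beta subunit. Gucy1a1 had 36.1 in the allograft against 102 in the syngraft (2.82-fold lower), and Gucy1b1 had 82.7 in the allograft against 159.7 in the syngraft (1.93-fold lower), so both subunits were lower. Gucy1a1 was close to the floor in the allograft. Among regulators of G protein signalling, 2 of 16 were higher and 2 lower: Rgs5, a mural cell gene, had 207 in the allograft against 972 in the syngraft (4.7-fold lower), and Rgs1, a lymphocyte gene, was at the floor in the syngraft and had 173 in the allograft (at least 4.99-fold higher). Among MAP kinase phosphatases and Sprouty-type inhibitors, 2 of 21 were higher and 2 lower, with a median of 0.06 that turned to -0.11 with the deposited values. Dusp2, a phosphatase of activated leukocytes, had 230.2 in the allograft against 96.4 in the syngraft, and Spry1, a feedback inhibitor of receptor tyrosine kinases, had 138 in the allograft against 375 in the syngraft (2.71-fold lower). For Pde3a the probe set mean gave 1.65-fold.

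Adaptors and cytoskeletal genes of blood cells had 23 of 30 members at least 1.5-fold higher and 1 lower. Ptprc, the leukocyte phosphatase CD45, had 2596 in the allograft against 523 in the syngraft (4.96-fold higher). Ptpn22, which restrains T cell receptor signals, had 305 in the allograft against 45.4 in the syngraft (6.71-fold higher), and Lcp2, the adaptor SLP-76 that carries those signals, had 535 in the allograft against 86.9 in the syngraft (6.16-fold higher). Coro1a, an actin regulator of leukocytes, had 1792 in the allograft against 340.3 in the syngraft, Sla had 324 in the allograft against 86.4 in the syngraft and Dok2 had 402 in the allograft against 115 in the syngraft. Sla and Dok2 encode inhibitory adaptors, so both carriers and brakes of leukocyte signals were higher. The T cell and cytotoxic cell markers moved with this list, and their part was not tested. For Lcp2 the probe set mean gave 3.64-fold and for Coro1a 2.99-fold.

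The Toll-like receptor and NF-kappaB list had 15 of 31 members higher and 1 lower. Zbp1, a sensor of nucleic acids in Z form that triggers cell death, had 1171 in the allograft against 109 in the syngraft (10.7-fold higher). Tlr3, the receptor for double-stranded RNA, was at the floor in the syngraft and had 166 in the allograft (at least 4.78-fold higher). Tlr2, a receptor for bacterial lipoproteins, had 379.6 in the allograft against 128 in the syngraft and the shared adaptor Myd88 had 780.4 in the allograft against 288 in the syngraft. Inhibitors of the pathway were higher too: Tnfaip3 (A20) had 126 in the allograft against 56.6 in the syngraft, and Nfkbia, the inhibitor that NF-kappaB itself induces, had 3420.4 in the allograft against 1804 in the syngraft. Traf1, an adaptor of TNF receptors at the floor in the syngraft, had 104 in the allograft. For Tlr3 the probe set mean gave 3.17-fold.

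Of 28 cell death regulators 13 were at least 1.5-fold higher and none lower. Casp1, the inflammasome caspase, was at the floor in the syngraft and had 294 in the allograft (at least 8.45-fold higher), and its adaptor Pycard had 594 in the allograft against 116 in the syngraft (5.11-fold higher). Casp4, a caspase that responds to lipopolysaccharide in the cytosol, had 372 in the allograft against 82.1 in the syngraft. Pro-death members of the Bcl-2 family were higher as well: Bak1 had 646 in the allograft against 153 in the syngraft (4.22-fold higher), Bid was at the floor in the syngraft and had 159 in the allograft, and Bad had 128 in the allograft against 40.7 in the syngraft. Birc2, an inhibitor of apoptosis, had 263 in the allograft against 119 in the syngraft (2.21-fold higher), so the higher members were not all of one effect. For Pycard the probe set mean gave 2.26-fold, for Bid 2.27-fold and for Bad 1.89-fold.

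**Figure D5:**
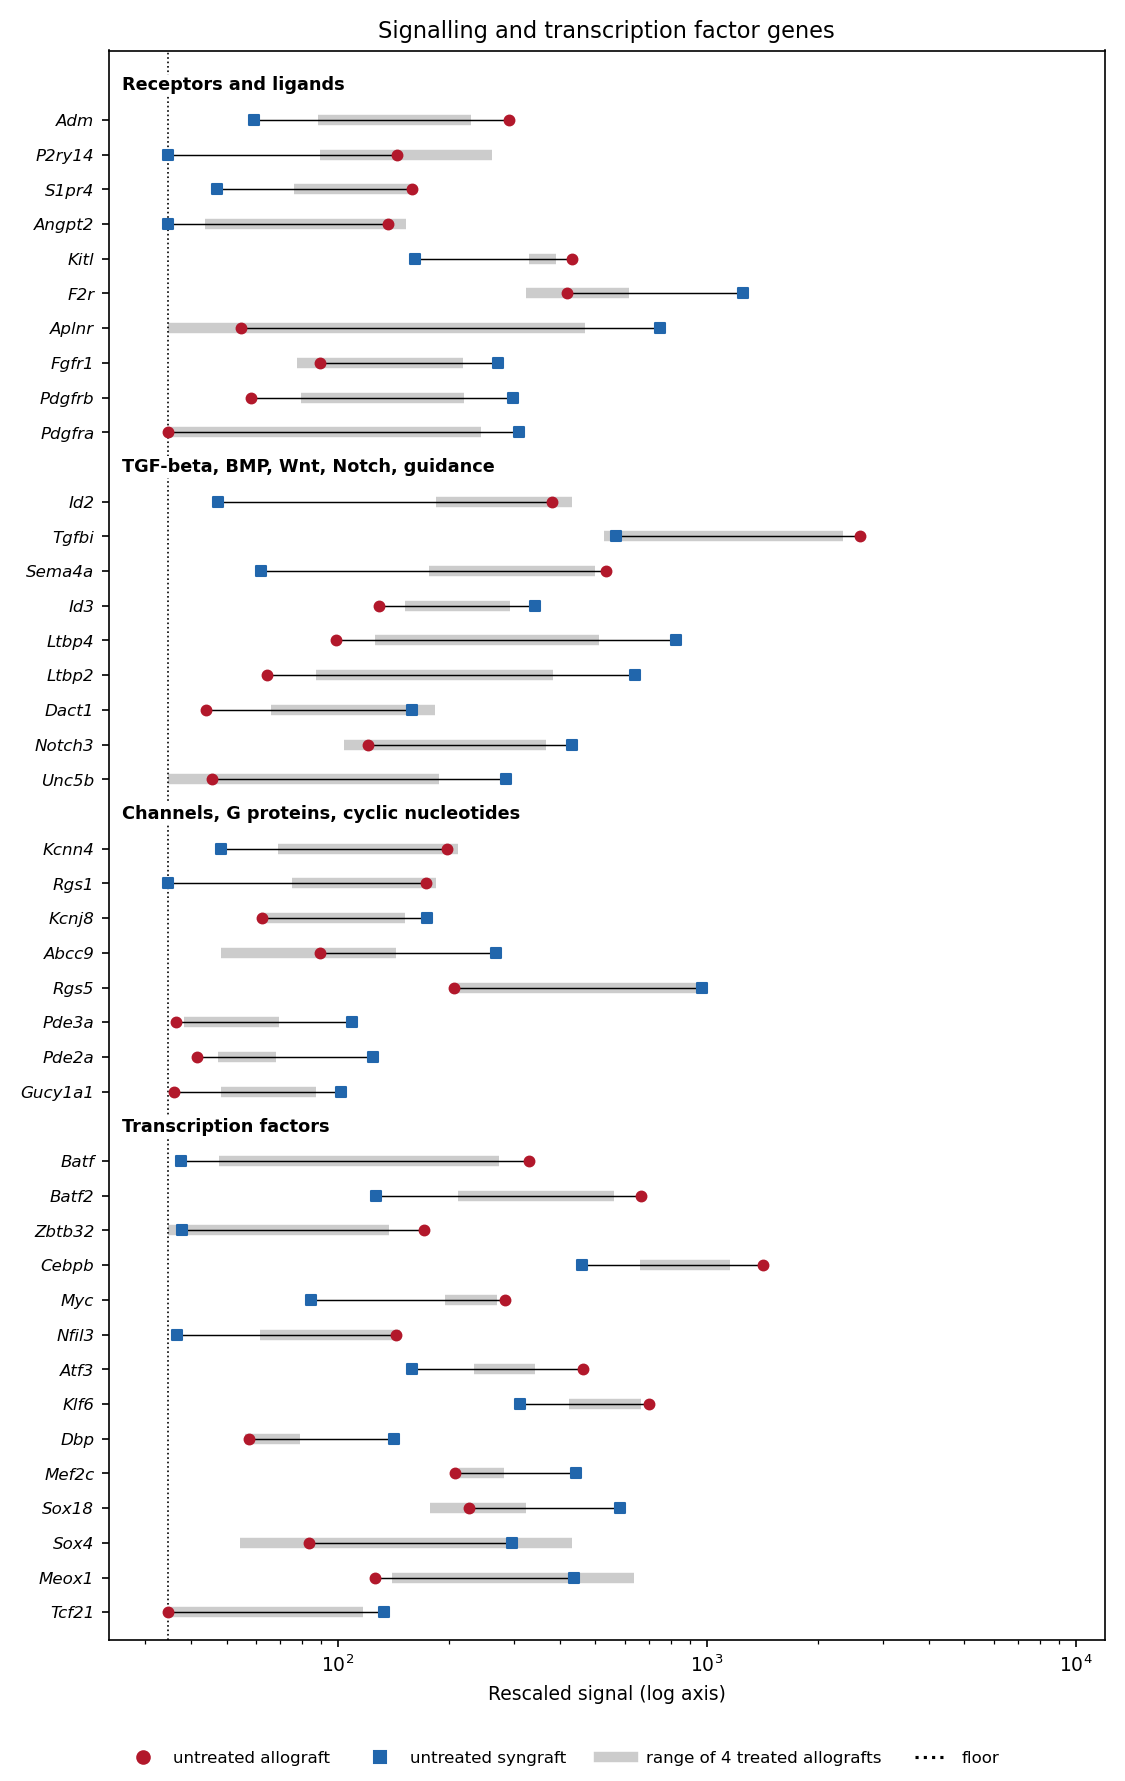
Signals (log scale) of named signalling and transcription factor genes in the untreated allograft and in the untreated syngraft, joined by a line for each gene, with the range of the 4 treated allografts in grey and the floor of 34.8 dotted. Batf and Sema4a are over 8-fold higher in the allograft, and Aplnr and Ltbp2 over 9-fold lower. The syngraft signal of Batf is close to the floor.

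Immediate-early and AP-1 genes had 12 of 32 members at least 1.5-fold higher and 1 lower. Myc, which drives growth and metabolism of activated cells, had a signal intensity of 284 in the allograft against 84.6 in the syngraft (3.36-fold higher). Atf3 had 461 in the allograft against 159 in the syngraft (2.9-fold higher). Zfp36, which destabilises cytokine messages, had 1026 in the allograft against 420.2 in the syngraft, Klf6, a Kruppel-like factor of injured tissue, had 697 in the allograft against 312 in the syngraft and the antiproliferative Btg2 had 1220.4 in the allograft against 597 in the syngraft. Fos and Egr1, the classical immediate-early factors, were higher by less than 2-fold, Fos with 891 in the allograft against 463 in the syngraft and Egr1 with 894 in the allograft against 492 in the syngraft. Egr4 was the lower member, with 41.0 in the allograft against 101 in the syngraft.

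Lymphoid and myeloid factors had 12 of 36 members higher and 3 lower. Batf, an AP-1 partner needed by effector T cells, had 330.2 in the allograft against 37.6 in the syngraft (8.77-fold higher), and Batf2, an interferon-inducible relative, had 666 in the allograft against 127 in the syngraft (5.24-fold higher). Zbtb32, a repressor of lymphocyte activation, had 172 in the allograft against 37.9 in the syngraft. Both Batf and Zbtb32 were close to the floor in the syngraft. Tbx21 (T-bet) and Ikzf1 (Ikaros) were at the floor in the syngraft, with allograft signals of 125 for Tbx21 and 132 for Ikzf1. Cebpb, a factor of macrophages and the acute-phase response, had 1419 in the allograft against 459.8 in the syngraft (3.09-fold higher), whereas its relative Cebpd was lower, with 309.7 in the allograft against 587 in the syngraft. Nfatc2, a calcineurin-regulated factor, had 141 in the allograft against 286 in the syngraft (2.03-fold lower) beside the higher T cell markers. For Cebpd the probe set mean gave 1.24-fold and for Nfatc2 1.15-fold.

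Mesenchymal factors had 2 of 37 members higher and 16 lower. Tcf21, a factor of cardiac fibroblasts, was at the floor in the allograft against 134 in the syngraft (at least 3.84-fold lower). Meox1, a homeobox factor of activated fibroblasts, had 127 in the allograft against 437 in the syngraft (3.45-fold lower), Sox4, a factor of progenitor cells, had 83.6 in the allograft against 297 in the syngraft (3.55-fold lower) and Plagl1, an imprinted zinc finger factor, had 96.9 in the allograft against 309 in the syngraft. Creb3l1 and Creb3l2 are membrane-bound factors that act on secretory and collagen genes. Creb3l1 had 118 in the allograft against 326 in the syngraft and Creb3l2 had 137 in the allograft against 426 in the syngraft, both over 2-fold lower. Foxf1, a forkhead factor shared with the endothelial list, was higher, with 103 in the allograft against 37.7 in the syngraft (2.72-fold higher). Its syngraft signal was close to the floor. For Sox4 the probe set mean gave 2.14-fold and for Plagl1 1.79-fold.

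Endothelial factors had 1 of 26 members higher and 8 lower. Sox17 and Sox18 direct arterial and lymphatic vessels. Sox18 had 228 in the allograft against 584 in the syngraft (2.56-fold lower), and Sox17 had 46.8 in the allograft against 106 in the syngraft. Meox2, which the mesenchymal list holds too, had 46.6 in the allograft against 116 in the syngraft, and Tal1, a factor of blood and vessel development, had 46.0 in the allograft against 95.1 in the syngraft. Of 17 measured Sox genes 5 (29.4%) were at least 2-fold lower and none 2-fold higher, against 4.78% and 6.85% of all genes. Of 5 measured lymphatic endothelial markers 4 were at least 1.5-fold lower, with sums of 599.6 in the allograft against 868 in the syngraft. Fibroblast markers and 5 of 8 endothelial markers were lower beside these lists, and the part of these cells was not tested.

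Cardiac factors differed less, with 2 of 29 higher and 5 lower, and none past 2-fold upward. Mef2c, a factor of cardiomyocyte and vascular genes, had 208 in the allograft against 443 in the syngraft (2.13-fold lower), and Foxk1, a forkhead factor of muscle progenitors, had 62.2 in the allograft against 127 in the syngraft. Smyd1, a muscle methyltransferase, had 563 in the allograft against 1116 in the syngraft. All 10 cardiomyocyte markers were within 1.5-fold beside these. Clock factors had 3 of 19 members higher and 6 lower. Nfil3 and Dbp are a repressor and an activator that compete for the same sites. Nfil3 had 144 in the allograft against 36.8 in the syngraft (3.92-fold higher) and Dbp had 57.7 in the allograft against 143 in the syngraft (2.47-fold lower), and the related activators Tef and Hlf were lower too, Tef with 281 in the allograft against 533 in the syngraft and Hlf with 58.7 in the allograft against 105 in the syngraft. The syngraft signal of Nfil3 was close to the floor. The hour of removal was not given, and a difference in hour cannot be told apart from the groups. Nuclear hormone receptors had 3 of 32 members higher and 3 lower, or 2 and 5 with the deposited values. At the floor on both arrays were 9 of the 32. Those past 2-fold, Nr1h3, Rxrg and Rarg, are given above.

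Some families were read by gene symbol. Of 39 Trim genes, ubiquitin ligases that include several interferon-inducible members, 5 (12.8%) were at least 2-fold higher and none lower. Trim21, an antibody receptor of the cytosol, had 573 in the allograft against 91.7 in the syngraft and its interferon-inducible relative Trim30a had 710.2 in the allograft against 128 in the syngraft (5.57-fold higher). Trim34a was at the floor in the syngraft and had 301 in the allograft. Of 50 Rab genes 3 (6.0%) were 2-fold higher and 2 (4.0%) lower, against 6.85% and 4.78% of all genes, so the family stood near the background. Rab32 and Rab7b, both of lysosome-related traffic, were higher, Rab32 with 198 in the allograft against 72.4 in the syngraft and Rab7b with 296 in the allograft against 104 in the syngraft, and Rab43 had 250.4 in the allograft against 84.3 in the syngraft. Rab34 was lower, with 108 in the allograft against 280.4 in the syngraft. For Trim21 the probe set mean gave 3.55-fold, for Trim34a 2.94-fold and for Rab43 1.95-fold.

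Of 30 serpins, protease inhibitors, 1 was 2-fold higher and 3 lower. Serpinb9, which blocks granzyme B inside cells, had 1167 in the allograft against 192 in the syngraft (6.07-fold higher). Serpinf1, the antiangiogenic pigment epithelium-derived factor, had 129 in the allograft against 1088 in the syngraft (8.46-fold lower), and Serpina3n, an acute-phase serpin, had 232 in the allograft against 1000.0 in the syngraft (4.31-fold lower). Neither annexins, 11 genes, nor S100 proteins, 14 genes, held a member 2-fold higher. The only one past 2-fold was S100a9, a neutrophil protein, with 205 in the allograft against 462 in the syngraft (2.26-fold lower). Neutrophil markers had 1 of 7 higher and 3 lower, with sums of 1086 in the allograft against 1465 in the syngraft, and S100a9 is one of them. Of the 173 Zfp genes 3 (1.73%) passed 2-fold upward and 4 (2.31%) downward, and 52 were at the floor on both arrays. Of 63 cytochromes P450 2 (3.17%) were higher and 5 (7.94%) lower, and 30 were at the floor on both arrays. Over all genes the shares were 6.85% higher and 4.78% lower. For Serpinf1 the probe set mean gave 12.8-fold.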

How the data were processed

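Total RNA of mouse cardiac grafts had been measured on 6 oligonucleotide arrays, 1 a group. The deposited values were signal intensities for 22690 probe sets an array, on a linear scale. The mean of each array after trimming 2% from each end was 200.1, so the authors had scaled the arrays to a common level. How the scans were read, summarised and corrected for background is not given in the sources used here. The deposited median was 77.7 in the allograft and 88.5 in the syngraft, and the number of arrays limits the precision.

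Each array was rescaled to the mean of the array medians, which moved the allograft by 0.10 and the syngraft by -0.09 on the log2 scale. Values below the 30th percentile (34.8, or 5.12 on the log2 scale, and 3 deposited values at or below 0) were set to that floor. Log2 differences were allograft minus syngraft. A gene took its brightest probe set among those with 1 gene symbol in a platform annotation, in which 691 probe sets name several genes and 1555 none. Gene symbols for promoters were matched to RefSeq on GRCm38.p6. Work used Python 3.11.15, pandas 2.3.3, numpy 2.4.6 and matplotlib 3.10.9. The code was also run on simulated arrays in which only bright probe sets were shifted, well past 2-fold and with little noise. That run says nothing about dim genes or about the spread between grafts.

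With 1 array a group no test was made. Genes are described by signals, folds and counts past 1.5-fold, 2-fold and 3-fold. Members of the lists past 2-fold were named in order of size, at most 6 in each direction, and other members where they complete a pathway. For symbol families the largest differences, at most 4 in each direction, could be named, and outside the lists the 12 largest in each direction. The members and lists were chosen with earlier results of these data known. Of 1140 list entries, 992 had a probe set. Alternatives were the deposited values, quantile normalization, other floors, a filter on dim genes and the mean over probe sets.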

Additional observations from a re-analysis of the deposited data

How the results depend on the processing

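No paired analysis was possible because each group had 1 array. The limits are those of 2 arrays: no spread between grafts is known, and signals near the floor carry background. Of 6 counts of genes or probe sets, none moved by over 1.5 times with the deposited values or with quantile normalization. None of the 4 gene counts did with the mean over probe sets. A filter to those above the floor on either or both arrays could not change these counts, because it drops only members without a difference. A floor at the 10th percentile moved all 6, to 1283 genes higher and 1374 lower at 2-fold, 598 higher and 645 lower at 3-fold, and 2402 probe sets higher and 2516 lower at 2-fold. A floor at the 50th percentile moved the 3 lower counts, to 292 genes at 2-fold, 121 genes at 3-fold and 446 probe sets at 2-fold. These floors lie at signals of 6.47 and 83.3, and a lower floor lets dim genes differ more. Of 236 genes named here, 12 moved by over 1.5-fold with the lower floor and 55 with the higher floor. With the mean over probe sets 36 did, and their folds stand beside them above. None did with the other 3 alternatives, and 2 genes at the floor on both arrays drop out under the filter. Of these 3, only quantile normalization could have moved a gene that far. The deposited values differ by a shift smaller than 1.5-fold, and the filter changes no value that it keeps. None of the 236 changed sign. Of the 219 past 2-fold, 201 stayed past it with the deposited values, 203 with quantile normalization, 175 with the higher floor and 190 with the mean over probe sets. The 35 list medians each moved by less than 1.5-fold under the 6 alternatives, and some medians near 0 changed sign, as given above. Most medians were themselves smaller than 1.5-fold, so this criterion could not register their loss. The shift of the deposited values was also too small to move a median that far. With the higher floor the median went from -0.45 to -0.10 for mesenchymal transcription factors and from -0.39 to -0.06 for the TGF-beta and BMP pathway. Hyaluronan and proteoglycan enzymes went to 0.00 and endothelial transcription factors to -0.02. The medians of haematopoietic adaptors, 0.94, and of the unfolded protein and ATF4 response, 0.64, changed less. Cell death regulators stayed at 0.53 and nucleotide enzymes went to 0.49. NAD and ADP-ribosylation enzymes went to 0.38 and Toll-like receptor and NF-kappaB genes to 0.32. The unfolded protein and ATF4 median was 0.43 with quantile normalization. With the mean over probe sets it was 0.40, and 10 of the 27 members were at least 1.5-fold higher. The 25 lists that leaned one way still had more members on that side under all 6, though the filter could not change their counts. Not all of them still met the full criterion for a lean. With the deposited values the hypoxia list had 7 members higher and 4 lower and the cholesterol list 4 and 3. With the higher floor the Wnt list had 4 members lower and 0 higher.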

Other observations

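Outside the lists, leaving out genes at the floor on either array, the largest differences in the higher direction were those of Gbp6 (36.7-fold higher), Cd274 (33.4-fold), Gbp2 (27.5-fold), Cxcl9 (24.8-fold), Gzma (22.6-fold) and Nkg7 (21.6-fold). Gbp6 and Gbp2 encode interferon-inducible GTPases, Cd274 the checkpoint ligand PD-L1, Cxcl9 a chemokine, Gzma a granzyme and Nkg7 a protein of cytotoxic granules. Gbp6 had 3352 in the allograft against 91.4 in the syngraft, and Cd274 had 1882 in the allograft against 56.4 in the syngraft. Further among the 12 largest, Ubd, a ubiquitin-like modifier, had a signal intensity of 1287 in the allograft against 62.1 in the syngraft (20.7-fold higher), and BC023105 had 1281 in the allograft against 61.8 in the syngraft (20.7-fold higher). Among the 12 largest in the lower direction, Mgp, an inhibitor of calcification, had 318 in the allograft against 6774 in the syngraft (21.3-fold lower), and Cygb, a globin of fibroblast-like cells, had 56.8 in the allograft against 599 in the syngraft (10.5-fold lower). Of 46 proteasome genes (Psm) 9 (19.6%) were at least 2-fold higher and none lower, against 6.85% and 4.78% of all genes. Of 74 mitochondrial ribosomal protein genes (Mrp) 5 were at least 2-fold higher and none lower (6.76%, against 6.85% of all genes). Among them Mrps18c, named after its values were seen, had 619 in the allograft against 174 in the syngraft (3.57-fold higher).

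Some lower genes were low in every allograft, treated or not. Baiap2l1, an actin and membrane adaptor of epithelial cells, had 141 in the allograft against 1743 in the syngraft (12.3-fold lower), and the 4 treated allografts lay between 117 and 137. Gpx3, the secreted glutathione peroxidase, had 726 in the allograft against 5527 in the syngraft (7.61-fold lower), and the treated allografts lay between 276 and 840.5. Gpx3 was chosen after its values were seen. For Postn, a matrix protein of fibroblasts, the treated allografts in contrast lay between 231 and 3019, with 219 in the allograft against 3142 in the syngraft. All these comparisons share the 1 syngraft array, and a difference in strain between the allograft and syngraft hearts cannot be told apart from the group.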
